A study of Mus musculus with 13 samples.

Results

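R-loop regions at gene starts that some libraries held and others lacked were described in N2a cells, a mouse neuroblastoma line. They were selected on the peak calls themselves. Peaks of 9 libraries were merged wherever they overlapped or touched, and a merged region was kept when it was narrower than 5000 bases, was overlapped by a peak in 2 to 8 of the 9 libraries, and had its midpoint within 1 kb of an annotated transcript start. Of 69497 merged regions, 12748 lay that close to a start, 12166 of these were narrow enough, and 5906 were called in 2 to 8 libraries. These 5906 variable promoter regions made up 8.5% of all merged regions and 48.5% of the narrow regions at starts. The other narrow regions at starts were 1953 called in all 9 libraries, termed constant here, and 4307 called in a single library.

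The 9 libraries came from DRIP-seq, in which restriction-cut genomic DNA is pulled down with S9.6, an antibody against RNA/DNA hybrids, and the DNA of the pulled-down fragments is sequenced. N2a cells had been transfected with a scramble siRNA (siScramble) or with siRNA against DDX1 (siDDX1), a putative RNA helicase, or against EXOSC3 (siEXOSC3), a subunit of the RNA exosome, with 3 libraries per group from separately seeded plates. All groups were the same cell line, and in 1 further library per group the cut DNA was digested with RNase H before the pull-down as a negative control. The sample titles and genotype fields give one treatment and the file names and peak names another in 12 of 12 peak lists, so that libraries titled siScramble, siDDX1 and siEXOSC3 hold peaks named siDDX1, siEXOSC3 and siScramble. Libraries are named below by their titles, as labelled siEXOSC3 and so on, and every direction between groups rests on those titles. By the peak names, what is given for siEXOSC3 would belong to the scramble control, what is given for siScramble to siDDX1, and what is given for siDDX1 to siEXOSC3.

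R-loops form when nascent RNA anneals to its DNA template behind RNA polymerase and leaves the other DNA strand unpaired. They are common at the starts of active genes, above all at CpG islands, stretches with many CG dinucleotides that most housekeeping genes carry, and where the RNA holds more G than C. RNase H degrades the RNA of such hybrids, and helicases, topoisomerases and RNA-degrading enzymes such as the exosome limit their number.

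The enzymes used to cut the DNA left their trace in these regions, and 4 edges are printed to show it. BsrGI cuts at TGTACA, EcoRI at GAATTC, HindIII at AAGCTT, SspI at AATATT and XbaI at TCTAGA. All 5 sites read the same on both strands, neighbouring sites can share letters at their ends, and each edge was counted for 1 enzyme. Capitals mark the site in 30 bases of the mm9 genome around the edge of the merged region.
Kdm3a, left edge, SspI, chr6:71581239-71581268, plus strand: ttttttcacaccAATATTtgtatcacagag
Kdm3a, right edge, XbaI, chr6:71583646-71583675, plus strand: atgttcattaaaTCTAGAggcaaaccatct
Unkl, left edge, EcoRI, chr17:25324972-25325001, plus strand: agtggctcaacaGAATTCacactcggatta
Unkl, right edge, SspI, chr17:25327144-25327173, plus strand: atgtaagtgtggAATATTttcttgcttatg
At Kdm3a, a histone demethylase gene, 6 of the 7 libraries with a peak shared the right edge and 3 shared the left edge. At Unkl, a gene for a zinc finger protein, 6 of 6 shared the right edge and 2 shared the left edge. Over all peaks in variable promoter regions, 36.4% of edges lay exactly on a cut of 1 of the 5 enzymes, against 0.0823% of left edges moved by 300 bases.

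Starts at variable regions ranged from CpG islands to sequences without a CG. For 6 of them the 120 bases upstream of the nearest transcript start are printed, 5′ to 3′ along the gene in mm9, with each CG in capitals, because a comparison of groups given below turns on this difference.
Insm1, chr2:146047537-146047656, plus strand, 22 CpG: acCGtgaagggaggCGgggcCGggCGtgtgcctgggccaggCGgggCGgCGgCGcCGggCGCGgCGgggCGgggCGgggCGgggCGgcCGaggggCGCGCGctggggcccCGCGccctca
Rnf216, chr5:143874674-143874793, minus strand, 13 CpG: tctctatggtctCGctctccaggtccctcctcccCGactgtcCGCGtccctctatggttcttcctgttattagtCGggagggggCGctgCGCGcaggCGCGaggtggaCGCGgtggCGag
Csrnp2, chr15:100325671-100325790, minus strand, 13 CpG: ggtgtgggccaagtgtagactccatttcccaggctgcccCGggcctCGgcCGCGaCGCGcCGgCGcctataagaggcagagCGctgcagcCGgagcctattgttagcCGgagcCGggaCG
Hamp, chr7:31729037-31729156, minus strand, 2 CpG: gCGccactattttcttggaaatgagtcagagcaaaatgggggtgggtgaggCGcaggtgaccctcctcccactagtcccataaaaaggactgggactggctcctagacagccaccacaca
Gm13662, chr2:71587862-71587981, plus strand, 2 CpG: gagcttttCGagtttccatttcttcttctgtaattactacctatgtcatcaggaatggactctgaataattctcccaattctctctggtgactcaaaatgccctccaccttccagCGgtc
Ipo9, chr1:137300033-137300152, minus strand, 0 CpG: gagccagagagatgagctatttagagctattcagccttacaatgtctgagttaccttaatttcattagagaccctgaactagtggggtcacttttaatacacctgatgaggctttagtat
Insm1 encodes a zinc finger factor of neuroendocrine cells. Rnf216 and Csrnp2 lacked a peak in the libraries labelled siScramble alone, Hamp lacked one in siDDX1 alone, and Gm13662 and Ipo9 lacked one in siEXOSC3 alone. These starts are examples picked on the calls and are no evidence on that comparison.

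Variable promoter regions were weaker and narrower than constant ones. The rule used the calls and the width, so these values are a description without a test. Their median width was 903 bases, their median fold enrichment over the local background where called was 5.35, and a median of 9 reads lay stacked at the summit (quartiles 7.5 and 10.0). Constant regions had a median width of 2816 bases, a fold enrichment of 8.73 and 15 reads at the summit. Regions of a single library had 331 bases, 4.59-fold enrichment and 7 reads. Of the variable regions, 1744 were called in 2 libraries, 963 in 3, 743 in 4, 597 in 5, 541 in 6, 598 in 7 and 720 in 8. Width rose with that number, from a median of 526.5 bases at 2 libraries to 2075.5 bases at 8, while reads at the summit went only from 8 to 10.5. A merged region joins the peaks of all libraries that call it, so its width cannot shrink as more are joined. The widths of variable, constant and single-library regions differ in part for that reason. Within 1 library, the peaks in a variable region spanned a median of 408 to 702 bases. The fewest reads under any peak in these regions were 5 to 7 by library, so that many lay within a few reads of the peak caller's limit. A library without a peak is not a library without reads there, because the lists give no value where no peak was called.

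The boundaries of the rule in width and distance fell within runs of like regions. The widest variable regions lay at Srp72 (4994 bases) and Cul7 (4981 bases), and the narrowest ones left out for width at Cnpy3 (5029 bases) and Gm13528 (5157 bases), with 8 calling libraries in each case. The midpoints at Mapt and Sugp2 were 1000 bases from a start, and those at Copg and Cbfa2t3, 1001 bases away, were left out.

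**Figure D1:**
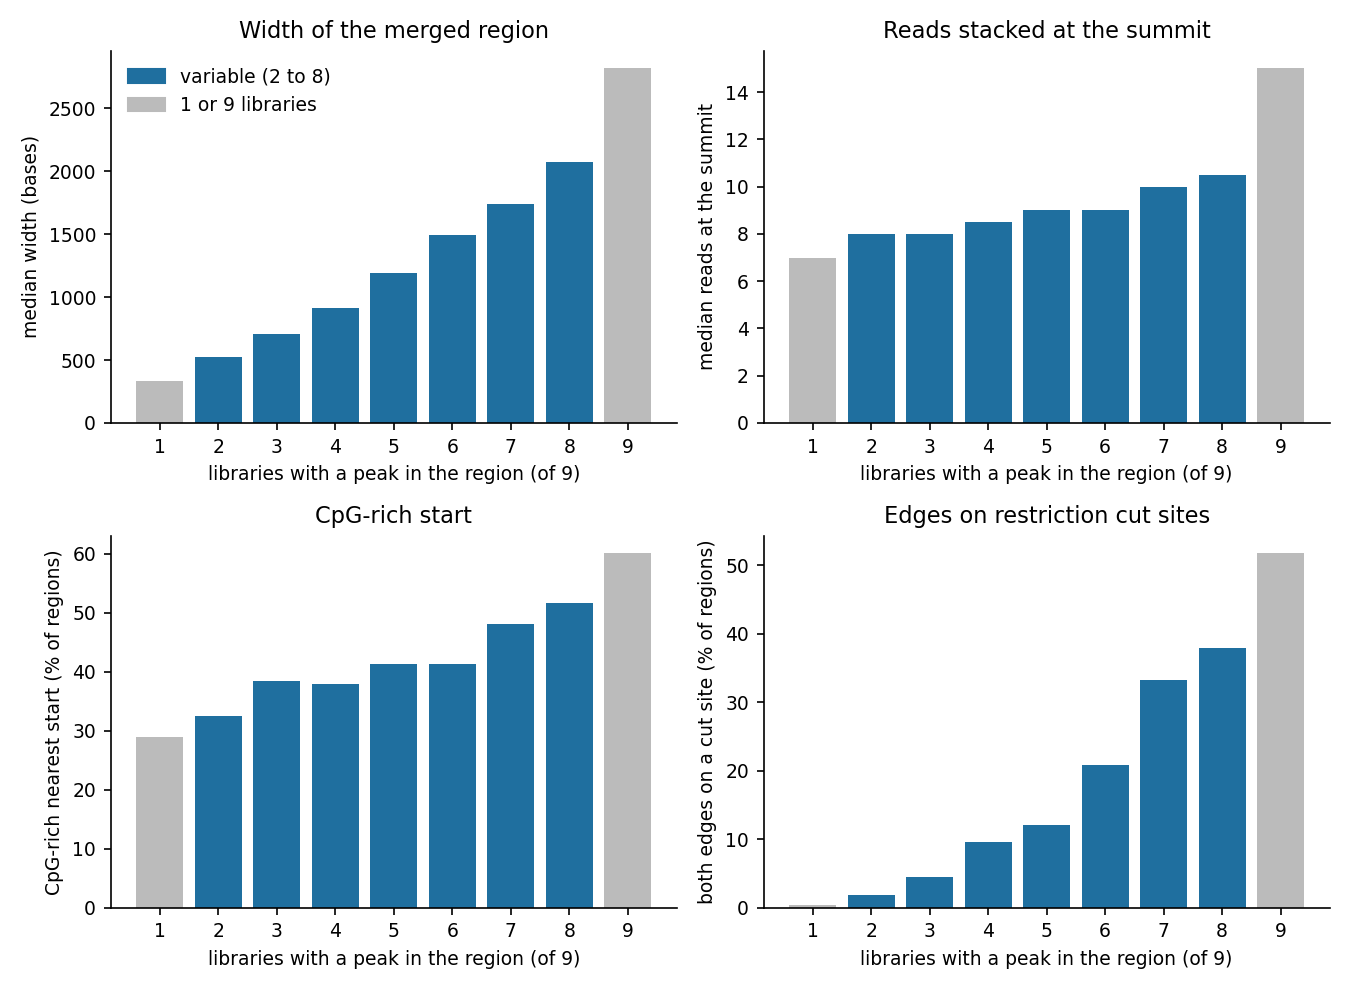
Narrow promoter regions by the number of libraries with a peak (x axis, 1 to 9): median width in bases, median reads at the summit, percent whose nearest start is CpG-rich, and percent with both edges on a restriction cut. Blue bars are the variable regions and grey bars those of 1 or 9 libraries. The width is that of the merged region, which joins the peaks of all calling libraries. Across the blue bars it climbs from 526.5 to 2075.5 bases, and CpG-rich starts climb from 32.5% to 51.7%.

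CpG content, which the rule did not use, moved with the number of calling libraries. A start was termed CpG-rich when the 1000 bases centred on it held at least 55% G and C and a CpG observed over expected ratio of at least 0.65. By this measure 39.8% of variable regions (2350 of 5906) had a CpG-rich nearest start, against 60.1% of constant regions and 29.0% of single-library regions. The share was 32.5% for regions called in 2 libraries, 41.4% for those in 5 and 51.7% for those in 8. The median GC content of the region itself was 52.8%, against 53.6% in constant, 50.6% in single-library regions and 41.8% over the genome. An excess of G over C downstream of the start along the gene was present at 68.9% of variable and 73.3% of constant regions. For protein-coding genes the same limits were applied at the most upstream start of a protein-coding transcript, which need not be the start nearest a region. By that start, 61.3% of genes whose strongest class was variable were CpG-rich, against 75.8% with a constant region and 21.5% with no region at any start.

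The restriction fragment bounded these regions only in part. At least 1 edge of the merged region lay on a cut in 70.3% of variable regions and both edges did in 13.6% (804 regions), against 89.6% and 51.7% of constant regions. The share with both edges on cuts went from 1.89% in 2 libraries to 37.9% in 8. Each edge of a merged region is the outermost of the joined peaks, so this share also depends on how many were joined. The median fragment around the midpoint was 1917.5 bases, against 2325 bases for constant regions and 1789 bases for single-library regions. The calling libraries rarely drew the same outline, with all edges identical in 12 of the 5906 regions. Of 27628 cases in which a library had no peak in a region, 20.7% had a peak elsewhere on the same restriction fragment. That share was 21.4% for regions called in 2 libraries and 8.89% for those called in 8.

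Nearest starts belonged to 4457 genes, and 90.8% of the regions (5361) were at protein-coding genes. Long intergenic RNAs had 130, miRNAs 57, small nucleolar RNAs 52, small nuclear RNAs 36 and rRNAs 17. The region spanned a transcript start in 62.6% of cases, against 98.1% of constant regions, and 10.8% had starts on both strands within 1 kb. The median midpoint was 62 bases downstream of the nearest start (quartiles −280 and 436).

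Few variable regions kept a peak after RNase H digestion. A peak of at least 1 of the 3 digested libraries overlapped 120 of 5906 regions (2.03%, exact 95% binomial interval 1.69 to 2.42, counting error only). The share was 1.51% with the library labelled siScramble, 0.999% with siDDX1 and 1.13% with siEXOSC3, without replicates, and 37 regions overlapped a peak in all 3. Constant regions overlapped in 4.25%, single-library regions in 0.929% and variable regions away from starts in 3.36%. The digested libraries were 1.62 to 2.30 times as deep as the mean of the others, as the background of their peaks shows. With at least 50% of the region required to be covered the share was 0.847%, and with peaks of −log10 q of at least 5 alone it was 1.58%.

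Some of the strongest regions lay at repeated sequences or kept a peak after RNase H. The region at mmu-mir-2134-4 (chr13:9833548-9833858), an annotated miRNA copy, had 103 reads at the summit in siDDX1 replicate 1 and 45 in siEXOSC3 replicate 3, no peak in the other 7 libraries, and a peak in all 3 RNase H libraries. The next strongest of those called in 2 libraries was 1700030J22Rik (chr8:119503070-119503715), a protein-coding gene, with 33 and 10 reads in siEXOSC3 replicates 2 and 3 and a peak in 2 RNase H libraries. It was followed by Ccdc28b, a coiled-coil protein gene, with 12 reads in siScramble replicate 2 and 20 in siEXOSC3 replicate 3. Rpl19-ps1 (chr1:85008571-85009477), a ribosomal protein pseudogene, was called in 8 libraries with 13 to 59 reads and also in all 3 RNase H libraries. By 5S rRNA genes on chromosome 8, the region at n-R5s144 was called in 8 libraries (24 to 46 reads) and that at n-R5s149 in 5 (9 to 20 reads). Reads of repeated copies such as the miRNA, the pseudogene and the rRNA genes can map to more than 1 place, so which copy they came from is uncertain.

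Among other genes, the region at Wbp2 (chr11:115940683-115944998), which encodes a WW domain binding protein, was called in 8 libraries. It had 31, 26 and 24 reads at the summit in siScramble replicates 1 to 3, 33 in siDDX1 replicate 1, 9 in siDDX1 replicate 3, and 21, 35 and 29 in siEXOSC3. The missing library was siDDX1 replicate 2, which held the fewest of these regions. Of regions called in 5 libraries, Hist1h3c, a histone gene, had 17 and 21 reads in siScramble replicates 2 and 3 and 9, 8 and 17 in siEXOSC3, with no peak in siDDX1. Fkbp8, which encodes a chaperone of the immunophilin family, had 10 and 15 in siScramble replicates 2 and 3, 19 in siDDX1 replicate 1, and 13 and 10 in siEXOSC3 replicates 1 and 3.

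The 9 libraries differed widely in how many variable regions they called, and more within groups than between them. Libraries labelled siScramble called 1498, 3372 and 3482, those labelled siDDX1 called 4031, 1298 and 2049, and those labelled siEXOSC3 called 2884, 2823 and 4089. The group means were 2784 ± 1115, 2459 ± 1412 and 3265 ± 714 (SD, n = 3 each), and all 3 groups overlap. siScramble replicate 1 and siDDX1 replicate 2 stood low, and siDDX1 replicate 1 and siEXOSC3 replicate 3 stood high. Total peaks ranged from 23882 to 42571 by library, and relative depth from 0.785 to 1.86 times the mean. siScramble replicate 1 and siDDX1 replicate 2 also had the fewest peaks in all (23882 and 24167). The number of calls is what the rule used and is part of each library's total, so no test of the relation is given. Of the 2 highest libraries, siDDX1 replicate 1 was the deepest (1.86) and siEXOSC3 replicate 3 among the shallowest (0.799). As a share of each library's peaks, these regions took 7.25 to 10.9% in siScramble, 6.11 to 12.02% in siDDX1 and 11.2 to 12.8% in siEXOSC3.

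**Figure D2:**
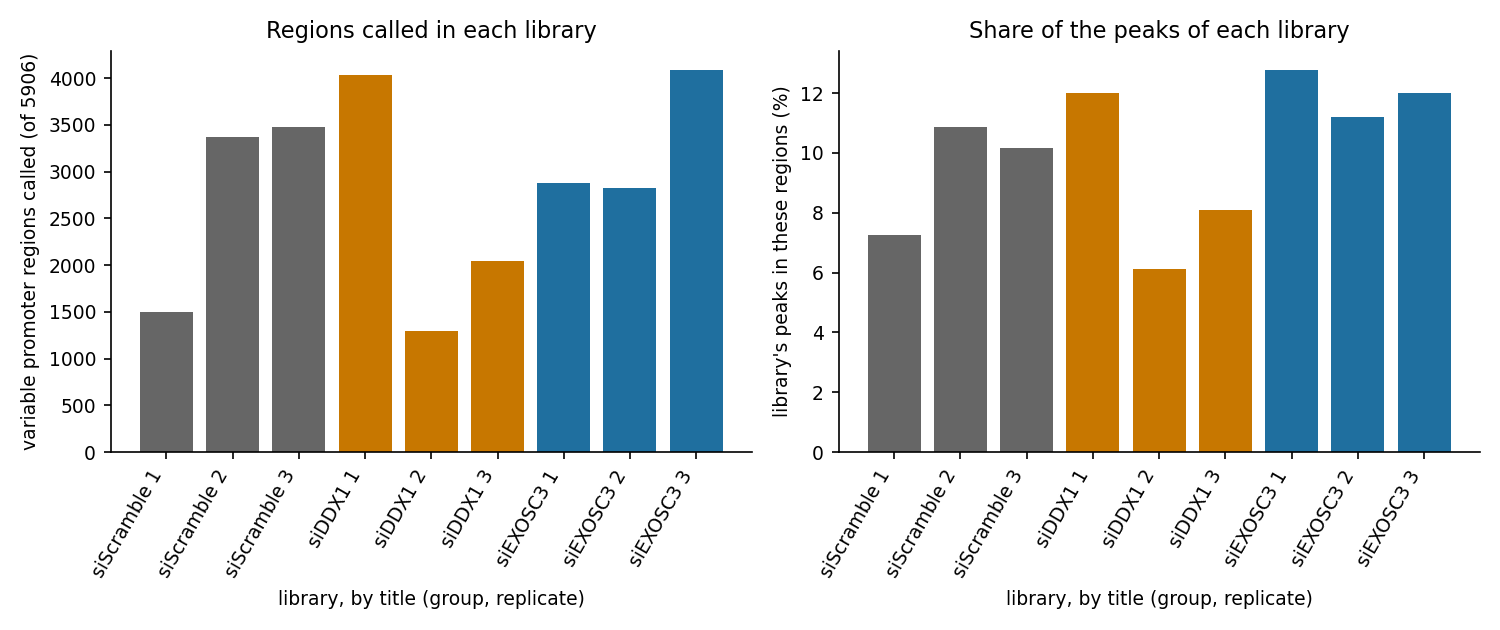
Left, variable promoter regions called in each of the 9 libraries, and right, the percent of each library's peaks that lie in them, with bars coloured by the group in the title. Calls run from 1298 (siDDX1 replicate 2) to 4089 (siEXOSC3 replicate 3), and the 3 siEXOSC3 libraries lie between 11.2% and 12.8% on the right.

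Since the calls of all 9 libraries had chosen the regions, groups were compared on regions chosen without the library measured. For each library, promoter regions were merged from the other 8, those called in 2 to 7 of the 8 were kept (5296 to 5667 regions), and the percent of them called in the left-out library was taken. It was 25.2, 54.98 and 57.0% in siScramble, 66.6, 21.9 and 33.6% in siDDX1, and 47.3, 46.6 and 65.9% in siEXOSC3. The means were 45.7% ± 17.8, 40.7% ± 23.2 and 53.3% ± 10.98 (SD, n = 3 each), and the groups overlap. No difference across the 3 groups passed the test (F = 0.371, exact permutation p = 0.661 over 280 divisions, adjusted p = 0.661). The differences in mean were −5.05 percentage points for siDDX1 minus siScramble, 7.53 for siEXOSC3 minus siScramble and 12.6 for siEXOSC3 minus siDDX1 (exact permutation, two-sided, p = 0.9, 0.6 and 0.5, each 0.9 after adjustment, where 20 assignments allow no p under 0.1). The signs of the first and second difference rest on single libraries, while the last was positive in each alternative tried. Without siDDX1 replicate 1 the first was −19.4 and the last 27.02, and without siDDX1 replicate 2 the last was 3.23. Without siDDX1 replicate 2 the first difference was 4.69, without siScramble replicate 3 it was 0.655, and without siScramble replicate 1 the second was −2.72.

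How often a left-out library called a region depended on how many of the others did. Regions called in 1 of the other 8 were called in 12.03% ± 7.48 (SD, n = 9 libraries), those in 4 of 8 in 46.3% ± 20.2, those in 7 of 8 in 83.4% ± 15.5, and those in 8 of 8 in 96.3% ± 4.48. At 4 of 8 the libraries ranged from 17.0 to 71.4%.

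CpG-rich starts were called more often than others in the left-out libraries labelled siEXOSC3. There, 61.2, 53.1 and 74.9% of regions with a CpG-rich start were called in replicates 1 to 3, against 38.2, 42.3 and 60.02% of the remaining regions. The libraries labelled siScramble called 27.6, 57.7 and 56.8% of CpG-rich and 23.7, 53.1 and 57.1% of the remaining regions. Those labelled siDDX1 called 71.8, 22.4 and 34.0% against 63.1, 21.6 and 33.4%. The gap between the 2 kinds of start was 16.2 ± 6.20 percentage points in siEXOSC3, 2.70 ± 2.67 in siScramble and 3.40 ± 4.61 in siDDX1 (SD, n = 3 each). All 3 siEXOSC3 libraries (10.8 to 23.0) lay above all 6 others (−0.361 to 8.73). This comparison was chosen after the data were seen. Across the 3 groups it gave F = 7.79 (exact permutation p = 0.0321 over 280 divisions). Adjustment was over the 3 tests planned or added across groups, the held-out share, this gap and the sharing of calls between libraries. The gap did not pass after adjustment (exact permutation over 280 divisions, adjusted p = 0.0857). That adjusted value depends on the sharing, which was measured on calls the rule had used. It is therefore no sound measure for the gap, and no passing result is claimed. The gap exceeded that of siScramble by 13.5 points and that of siDDX1 by 12.8 (exact permutation, two-sided, p = 0.1 for both, the smallest possible, 0.15 after adjustment over 3 pairs). The unadjusted p was 0.0536 without siScramble replicate 1 or without siScramble replicate 3, 0.0714 without siEXOSC3 replicate 1, and 0.152 without siScramble replicate 1 and siDDX1 replicate 2 together.

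The base composition of the siEXOSC3 libraries stood apart outside promoters as well. The median GC content of variable regions called away from starts was 48.0, 47.8 and 47.7% in the 3 siEXOSC3 libraries, and between 46.3 and 46.8% in the 6 others. For the variable promoter regions called it was 54.7, 54.1 and 53.7%, against 52.1 to 53.2%. The part of this shift in the promoter result was not tested. The 3 siEXOSC3 libraries had relative depths of 0.879, 0.916 and 0.799, within the range of the others.

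**Figure D3:**
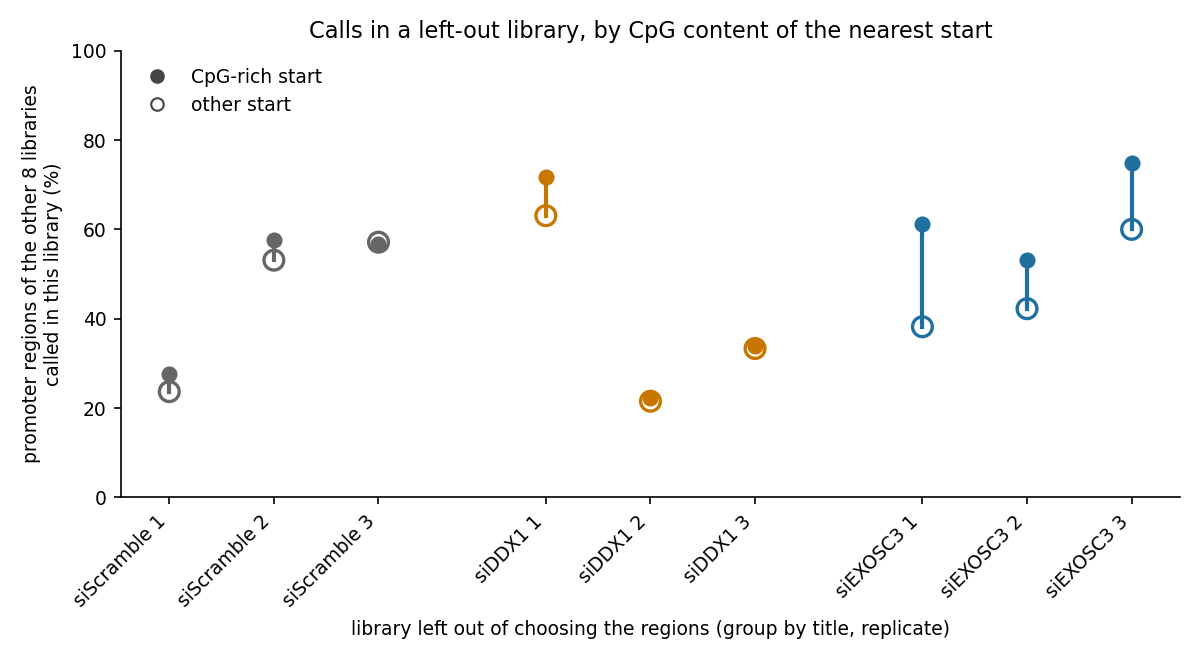
Percent of promoter regions, chosen from the other 8 libraries, that were called in each left-out library (y axis), for regions with a CpG-rich nearest start (filled) and all remaining regions (open circles), with libraries on the x axis coloured by group. Lines join the 2 values of a library, and the gap is 10.8 to 23.0 points in the siEXOSC3 libraries and at most 8.73 in the others.

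Which regions a library called was compared by the Jaccard index, the number of variable regions called in both libraries of a pair divided by the number called in either. These are the calls the rule used, so the values are a description and no p is given for them, although the sharing counts in the adjustment above. Libraries of 1 group shared on average 0.381 (9 pairs) and libraries of different groups 0.357 (27 pairs), a gap of 0.0244. Within groups it was 0.469 in siEXOSC3, 0.382 in siScramble and 0.291 in siDDX1, and single pairs ran from 0.167 to 0.562. The index cannot exceed the smaller number of calls in a pair divided by the larger. Calls per library ran from 2823 to 4089 in siEXOSC3, 1498 to 3482 in siScramble and 1298 to 4031 in siDDX1. The part of these unequal totals in the order of the groups was not tested. The gap was −0.00342 without siEXOSC3 replicate 1, 0.000182 without siEXOSC3 replicate 2, 0.00887 without siEXOSC3 replicate 3 and 0.0783 without siDDX1 replicate 1. With each library cut to its 23882 strongest peaks it was 0.0375.

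Regions that separated 1 group from both others were few, and with all 9 libraries most of them were called only in siEXOSC3. These counts use the calls of the rule and carry no test. Called in 3 of 3 siEXOSC3 libraries and in 0 of 6 others were 49 variable promoter regions (0.83%), against 0.196% of all merged regions and 0.354% of variable regions away from starts. The same pattern for siScramble held 6 regions (0.102%, against 0.109% of all merged regions and 0.285% away from starts) and for siDDX1 6 regions (0.102%, against 0.0705% and 0.175%). Missing from all 3 siScramble libraries and called in all 6 others were 4 regions (0.0677%, against 0.0187% and 0.0366%), from siDDX1 7 (0.119%, against 0.036% and 0.0733%) and from siEXOSC3 4 (0.0677%, against 0.0633% and 0.163%). All merged regions include those of a single library, which cannot show any of these patterns. Of all 136 merged regions seen only in siEXOSC3, 36.0% were variable promoter regions, against 7.89% of the 76 seen only in siScramble and 12.2% of the 49 seen only in siDDX1. For regions missing from 1 group alone the share was 30.8% (siScramble), 28.0% (siDDX1) and 9.09% (siEXOSC3). In all there were 5906 variable promoter regions and 24572 variable regions away from starts. By the peak names these 49 regions would be ones held by the scramble control and missing from both depletions. The count of 49 was 104 without siDDX1 replicate 1, 104, 159 and 185 without siEXOSC3 replicate 3, 1 and 2, where 2 of 2 libraries suffice, and 28 with starts within 500 bases. By the same 2 of 2, siScramble alone held 131, 33 and 24 without siScramble replicates 1, 2 and 3. Without siScramble replicate 1 and siDDX1 replicate 2 together, siScramble alone held 138, siDDX1 alone 68 and siEXOSC3 alone 61. In that setting, chosen after seeing the data, siEXOSC3 still needed 3 of 3 libraries, while siScramble and siDDX1 needed 2 of 2. The counts, and which group held the most, thus depended on the libraries included and on how many had to match.

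**Figure D4:**
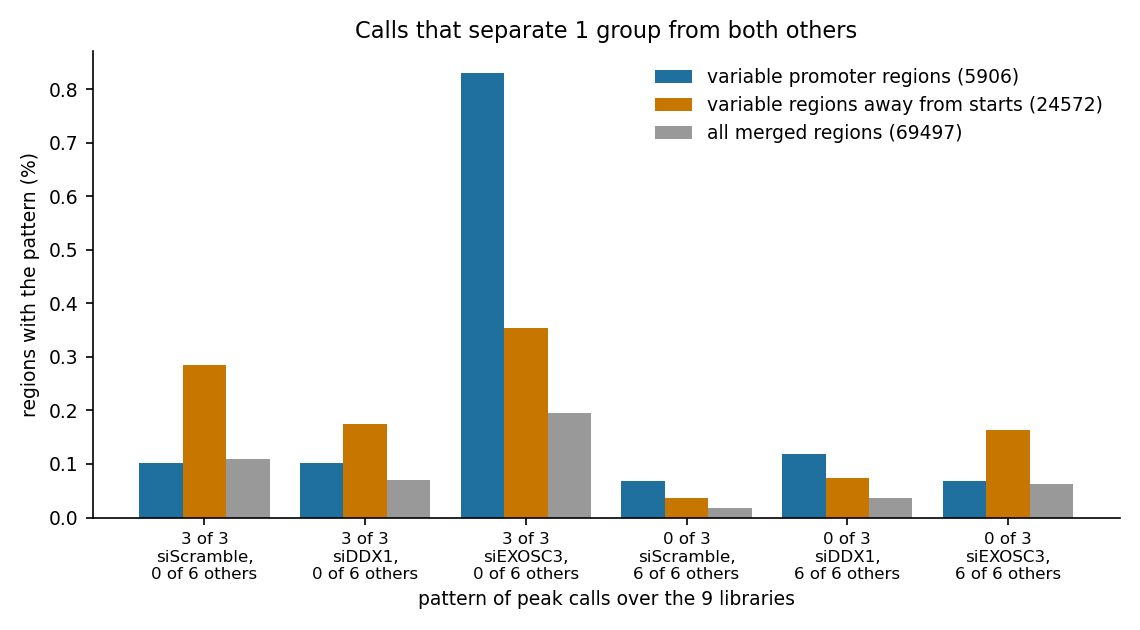
Percent of regions (y axis) with each of the 6 patterns of calls that set 1 group of 3 libraries apart from the 6 others (x axis), among variable promoter regions (blue), variable regions away from starts (orange) and all merged regions (grey). The pattern of siEXOSC3 alone stands at 0.83% of variable promoter regions, and no other bar is above 0.354%.

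The 49 regions called only in siEXOSC3 lay at 48 genes and had a median of 8 reads at the summit. Their median GC content was 55.2%, 26 of 49 (53.1%) had a CpG-rich nearest start, and 1 overlapped an RNase H peak. The strongest lay by n-R5s111, a 5S rRNA copy (chr8:126080891-126081176), with 9, 12 and 17 reads in replicates 1 to 3. The next were at Jup, which encodes the junction protein plakoglobin (chr11:100257257-100259827), with 10, 9 and 14 reads, and at Lasp1, which encodes an actin-binding protein (chr11:97662531-97663687), with 6, 11 and 13. At Ddhd1, which encodes a phospholipase (chr14:46275863-46276756), the reads were 11, 6 and 12. In each case replicate 3 was the highest, and the other 6 libraries had no peak.

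The 6 regions of siScramble alone had a median GC content of 45.7%. At Top2a (chr11:98862822-98864004), whose product is a DNA topoisomerase of dividing cells, the 3 libraries had 9, 8 and 12 reads. Plp2, a membrane proteolipid gene, had 7, 8 and 8, Zcchc9, a zinc knuckle gene, 14, 8 and 6, and Dohh, which encodes an enzyme of hypusine synthesis, 7, 7 and 8. Apart from 14 reads at Zcchc9 and 12 at Top2a, these values lay close to the 5 or 6 reads under the weakest peaks of the siScramble libraries. The 6 of siDDX1 alone had a median GC content of 45.2%. Mfap1b, which encodes a spliceosome-associated protein and has a near-identical copy in Mfap1a, had 19, 8 and 10 reads (chr2:121298605-121299060). Zfp867, a zinc finger gene, had 15, 7 and 6, Ifngr2, an interferon gamma receptor subunit, 9, 8 and 7, and Als2cl 11, 7 and 6. Replicate 1, the deepest library, was the highest at each.

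Regions missing from 1 group alone had median widths of 2142 bases for siScramble, 1872 for siDDX1 and 2258 for siEXOSC3. They join the peaks of 6 libraries, where regions of 1 group alone join those of 3. All variable regions had a median width of 1490 bases when called in 6 libraries and 709 when called in 3. Their greater width is therefore no separate result. A CpG-rich nearest start was present at 4 of 4 missing from siScramble, 1 of 7 missing from siDDX1 and 0 of 4 missing from siEXOSC3. Among all variable regions called in 6 libraries the share was 41.4%. These few regions were picked on the calls, so the counts are a description and add nothing to the comparison of CpG-rich starts above. The lincRNA 9130213A22Rik (chr11:68933543-68938419) had 15, 7 and 9 reads in siDDX1 and 13, 14 and 23 in siEXOSC3. Rnf216, a ubiquitin ligase gene, had 16, 7 and 6 and then 7, 12 and 16. Csrnp2, which encodes a nuclear protein, had 13, 8 and 8 and then 13, 10 and 10, and also overlapped a peak of 1 RNase H library. Anapc7, a subunit gene of the anaphase-promoting complex, had 11, 5 and 6 and then 6, 6 and 8. None of the 4 had a peak in siScramble.

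Missing from siDDX1 alone, the region at Wbscr22, a methyltransferase gene (chr5:135540387-135542215), had 8, 7 and 10 reads in siScramble and 10, 8 and 18 in siEXOSC3. Hamp, the gene of the iron hormone hepcidin, had 8, 9 and 11 and then 9, 10 and 12, Dcun1d4 11, 7 and 10 and then 6, 9 and 11, and Unkl 6, 11 and 8 and then 8, 11 and 7. Missing from siEXOSC3 alone, Nsmce4a, a subunit gene of a DNA repair complex (chr7:137683652-137687930), had 10, 10 and 8 reads in siScramble and 14, 8 and 9 in siDDX1. Ftsj3, a methyltransferase gene of rRNA maturation, had 8, 12 and 14 and then 13, 8 and 8. Ipo9, a nuclear import receptor gene, had 12, 7 and 7 and then 13, 6 and 7, and the lincRNA Gm13662 had 6, 10 and 7 and then 12, 6 and 7. Most of these values lay between 6 and 14 reads, so that a group was missing from regions that few reads marked in the others. Without 1 library the counts of these 5 small patterns ranged from 6 to 131 for siScramble alone (131 without siScramble replicate 1), 8 to 64 for siDDX1 alone (64 without siDDX1 replicate 2), 3 to 21 for missing from siScramble (21 without replicate 3 of that group), 7 to 143 for missing from siDDX1 (143 without siDDX1 replicate 1) and 4 to 21 for missing from siEXOSC3 (21 without siEXOSC3 replicate 3).

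**Figure D5:**
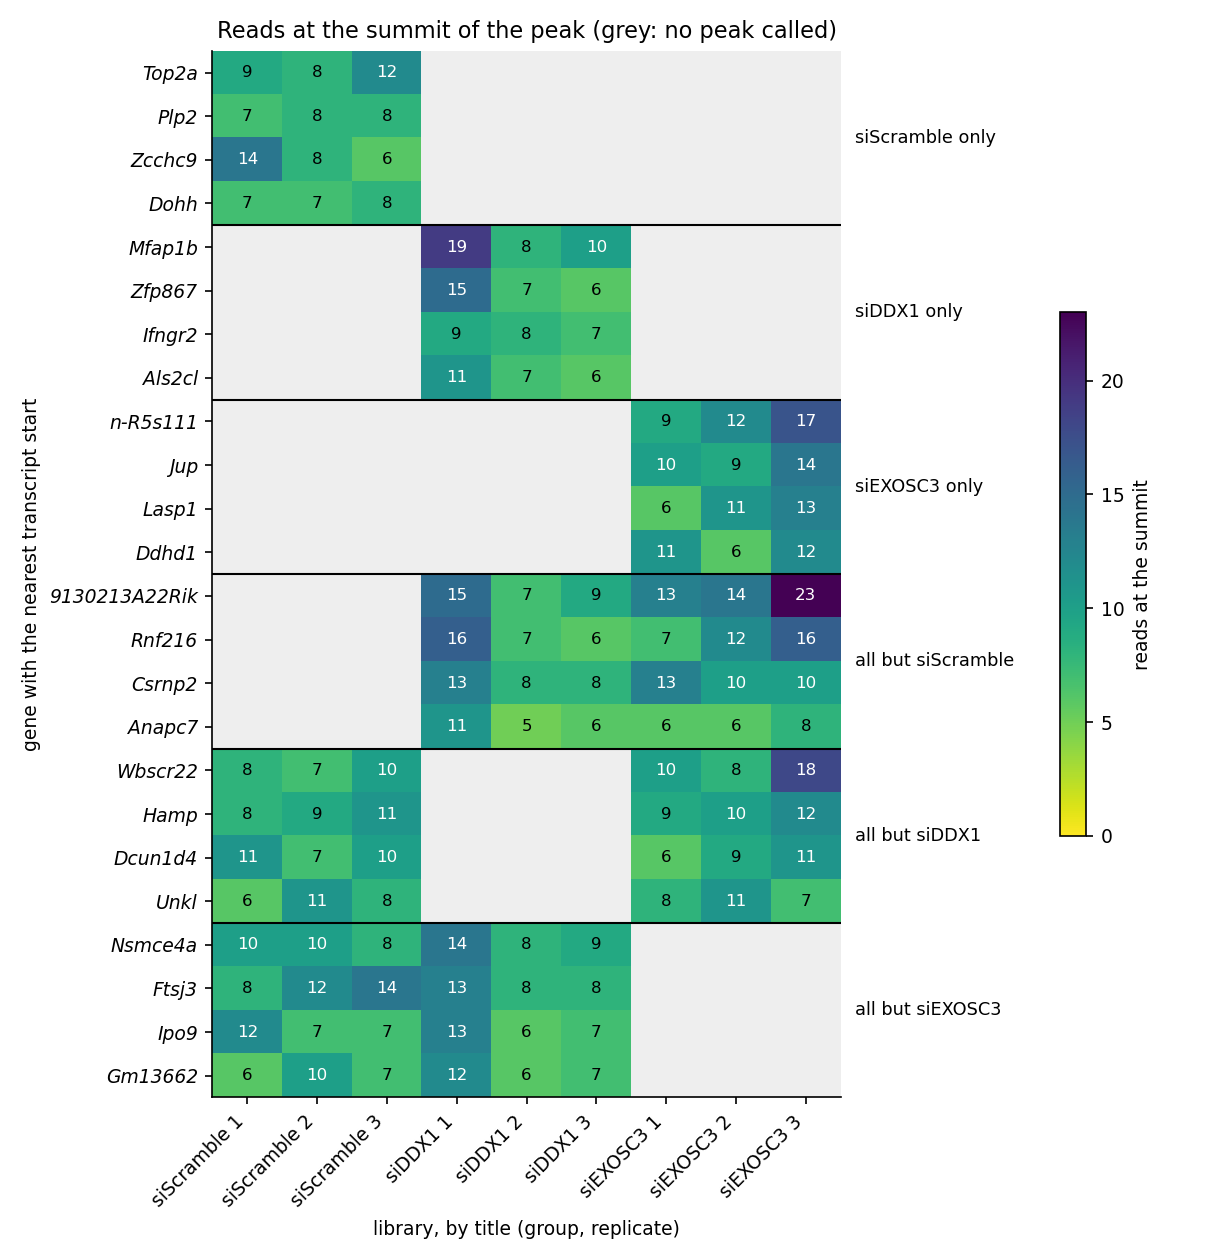
Reads at the summit (number and colour) in each library (columns, by title) for the 4 strongest variable promoter regions of each pattern (rows, named by the gene of the nearest start), with grey where no peak was called. The coloured cells run from 5 to 23 reads, and siDDX1 replicate 1 and siEXOSC3 replicate 3 hold the darkest.

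Genes of the exosome itself often had a variable region at a start. Of 13 genes for exosome subunits and nucleases, 7 (53.8%) had at least 1, against 19.2% of all protein-coding genes (4297 of 22372), and they held 10 regions. Over all protein-coding genes, 8.52% had a constant region and 66.8% had no region, and the lists below stand beside these shares. Exosc2, a cap subunit gene (chr2:31527935-31530887), had 10, 10 and 22 reads in siScramble, 17 and 13 in siDDX1 replicates 1 and 2, and 9, 8 and 15 in siEXOSC3. Exosc8, a core ring subunit gene (chr3:54532562-54534655), had 13, 13 and 9, then 13 and 8 in siDDX1 replicates 1 and 3, then 8, 7 and 9. Dis3l, a cytoplasmic nuclease gene of the complex, had 3 regions called in 5, 4 and 2 libraries. Exosc9 and Exosc10 had 1 region each, called in 5 libraries, and Exosc7 had 1 called in 2.

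The 2 depleted genes gave little. Exosc3 had a region of 558 bases called in siScramble replicate 3 (12 reads) and siDDX1 replicate 1 (14 reads), and 1 of 810 bases called in 3 libraries, 1 of siScramble and 2 of siEXOSC3. Ddx1 had no merged region within 1 kb of a start. Of 3 further genes, Ints6 and Celf4 had constant regions at a start, with a median of 34 and 9 reads at the summit. The Bambi region was called in a single library labelled siEXOSC3. Constant means called in every untreated library and does not mean unchanged. The study had singled these genes out, and by a test of read counts it reports changed R-loop regions at each after depletion. Only calls at starts were looked at here, so that result was not tested.

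Of 14 genes for nuclear exosome cofactors, 4 (28.6%) had a variable region and 5 had a constant one. Papd5, a poly(A) polymerase gene, had 2 adjacent regions called in 5 libraries each, with 5 to 12 reads. Zc3h18, which encodes a factor bridging cap-bound RNA and the exosome, had 1 called in 4 libraries with 10, 15, 11 and 10 reads (siScramble replicates 2 and 3, siDDX1 replicate 3 and siEXOSC3 replicate 3). Of 28 genes for enzymes that resolve or limit R-loops, 8 (28.6%) had a variable region. Rnaseh1, the gene of the hybrid-degrading nuclease, and Rnaseh2c, a subunit of its larger relative, were each called in 7 libraries with a median of 10 reads. The region at Brca1, a DNA repair gene that shares its start with Nbr1, was called in 8 libraries with 7 to 20 reads. Top3b, a topoisomerase gene, had 3 regions called in 7, 4 and 3 libraries, Top1 1 called in 4, and Atxn2, which encodes an RNA-binding protein, 4 called in 8, 7, 3 and 2.

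The study itself drew attention to protein folding, histone modification and axon guidance from these samples, so that those lists are no independent evidence. Of 49 protein folding genes, 17 (34.7%) had a variable region and 20 a constant one. The region at Cct7, a chaperonin subunit gene that shares its start with 1700040I03Rik, was called in 8 libraries, all but siScramble replicate 1, with 16 and 16 reads in siScramble, 20, 12 and 13 in siDDX1 and 17, 14 and 22 in siEXOSC3. Canx, which encodes the lectin chaperone calnexin, had 16, 11 and 14, then 23, 9 and 9, then 10 and 13 in siEXOSC3 replicates 1 and 3. Of 53 genes for histone lysine modifiers, 27 (50.9%) had a variable region, 37 regions in all. Kdm3a had 11, 16 and 6 reads in siScramble, 16 in siDDX1 replicate 1, and 23, 18 and 16 in siEXOSC3. Kdm5b, a demethylase gene, had 8 and 11 in siScramble replicates 1 and 3, 13 and 7 in siDDX1 replicates 1 and 3, and 11, 14 and 17 in siEXOSC3. Setd5, a SET domain gene, had 11, 15 and 13, then 22, 9 and 11, then 13 in siEXOSC3 replicate 3 alone.

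Of 72 axon guidance genes, 11 (15.3%, against 19.2% of all protein-coding genes) had a variable region and 49 (68.1%, against 66.8%) had none of any kind. Plxnd1, a semaphorin receptor gene (chr6:115904447-115907060), had 18, 15 and 19 reads in siScramble, 13 and 9 in siDDX1 replicates 1 and 3, and 14, 16 and 19 in siEXOSC3. Unc5b, a netrin receptor gene, had 13 and 13 in siScramble replicates 2 and 3, 13, 9 and 10 in siDDX1, and 15, 19 and 24 in siEXOSC3. Its relative Unc5a had 8 in siScramble replicate 1, 15 and 6 in siDDX1 replicates 1 and 3, and 12, 12 and 14 in siEXOSC3. The bases just upstream of the start by that Unc5a region overlapped an annotated exon. Of 33 genes of sympathetic neuron and neuroblastoma identity, 5 (15.2%) had a variable region. Insm1 had 13 and 13 in siScramble replicates 2 and 3, 15 and 9 in siDDX1 replicates 1 and 3, and 13, 12 and 19 in siEXOSC3. Gata2, a transcription factor gene of the sympathetic lineage, had 8, 6 and 9, then 11 in siDDX1 replicate 1, then 8, 8 and 13.

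Of 31 immediate early genes, 6 (19.4%) had a variable region, near the 19.2% of all protein-coding genes, and 6 had a constant one. Gadd45b, a stress response gene, had 9 reads in siDDX1 replicate 1 and 8, 9 and 14 in siEXOSC3. Arc, an activity-regulated gene of neurons, had 9 in siScramble replicate 3 and 9, 9 and 11 in siEXOSC3. Jund, a subunit gene of the AP-1 factor, had 9 and 8 in siEXOSC3 replicates 1 and 3. Dusp5, a phosphatase gene, had 10 in siScramble replicate 2, 12 in siDDX1 replicate 1, and 8 and 6 in siEXOSC3 replicates 1 and 3. Klf6, a zinc finger factor gene, was called in 1 siScramble and 1 siDDX1 library and in 0 siEXOSC3 libraries, and Fosb, another AP-1 subunit gene, in 1 siDDX1 and 1 siEXOSC3 library. Of 38 splicing factor genes of the SR and hnRNP families, 9 (23.7%) had a variable region and 27 (71.1%) a constant one. Hnrnpul2 had 18, 10 and 20 reads, then 25 in siDDX1 replicate 1, then 16, 11 and 17. Srsf3 had 18 and 13 in siScramble replicates 2 and 3, 34, 11 and 14 in siDDX1, and 18 and 23 in siEXOSC3 replicates 1 and 3. The share of genes with a constant region ran from 6.94% in axon guidance to 71.1% in these splicing factors, beside 8.52% of all protein-coding genes.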

How the data were processed

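R-loops were measured by DRIP-seq in 9 libraries and in 3 RNase H-digested ones. Per the study's methods the authors aligned reads to mm9 with Bowtie2 2.4.4 and called peaks for each library with MACS2 2.2.6 against an input library, which was not analysed here. Their test of read counts could not be repeated from peak lists, so calls replaced it. The deposited lists hold a display score, which was not used, fold enrichment as a ratio to local background, and p-values and q-values as −log10. From fold and −log10 p, whole reads at the summit were recovered for 99.53 to 99.97% of peaks of each list (tolerance 0.001 on −log10 p), and the smallest background gave relative depth.

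Transcript starts came from GENCODE vM1 and bases from the same assembly (NCBIM37, mm9). Python 3.11.15, numpy 2.4.6, scipy 1.17.1 and matplotlib 3.10.9 were used. An overlap of 1 base by a library's peak counted as a call. Groups followed the titles. Comparisons of groups used exact permutation tests over libraries with Benjamini-Hochberg adjustment at a threshold of 0.05. Each p is the share of divisions of the libraries that gave a statistic at least as large. The libraries came from separately seeded plates of 1 cell line, so no wider variation is covered. The code was tested on simulated data. Members and lists were chosen with earlier results of these data known.

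Genes named were the 4 regions of highest mean −log10 q in each pattern, up to 4 per gene list, the 3 strongest called in 2, 5 and 8 libraries, those nearest each threshold, and 5 genes of the study. Some of these are given by counts alone, and further listed genes beyond 4 were named after their values were seen. A region at a shared start counts for each gene there. The list of 32 identity genes matched 33 annotated entries and that of 48 folding genes 49, since a symbol can have 2 entries. Alternatives were stricter peaks (−log10 q of at least 5), equal numbers of peaks, joining over 500 bases, coverage of at least 50% of the region, starts within 500 bases, protein-coding starts, no RNase H overlap, 1 library left out and a replicate block.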

Additional observations from a re-analysis of the deposited data

How the results depend on the processing

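The held-out call share across groups stayed short of the threshold in all 18 alternatives. Its differences ranged, with 1 library left out, from −19.4 to 4.69 points for siDDX1 minus siScramble, from −2.72 to 13.8 for siEXOSC3 minus siScramble and from 3.23 to 27.02 for siEXOSC3 minus siDDX1. The second was −3.05 without siScramble replicate 1 and siDDX1 replicate 2 together, a setting chosen after seeing the data. The F of the CpG gap ranged from 4.92 to 11.1 with 1 library left out and was 4.49 without those 2 libraries together (exact permutation p = 0.152). The Jaccard gap, a description, was 0.0375 with equal numbers of peaks and ran from −0.00342 to 0.0783 with 1 library left out. The cause of these changes was not tested. There were 3730 variable regions with starts within 500 bases.

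Counts of separating patterns with 1 library left out ran from 6 to 131 (siScramble alone), 8 to 64 (siDDX1 alone), 53 to 185 (siEXOSC3 alone), 3 to 21, 7 to 143 and 4 to 21 (missing from siScramble, siDDX1 and siEXOSC3). They are higher in part because fewer libraries have to match. Without the 2 libraries together they were 138, 68, 61, 27, 28 and 34 in the same order. With starts within 500 bases they were 2 for siDDX1 alone, 28 for siEXOSC3 alone, 2 for missing from siScramble and 2 for missing from siEXOSC3. With protein-coding starts they were 3 for siScramble alone, 4 for missing from siDDX1 and 0 for missing from siEXOSC3. Coverage of 50% gave 1 for missing from siScramble and 2 for missing from siDDX1. Stricter peaks gave 2 for siDDX1 alone. Equal numbers of peaks gave 11 for missing from siDDX1 and 7 for missing from siEXOSC3, and joining over 500 bases gave 4 and 1. The RNase H overlap of 2.03% was 0.847% with 50% coverage and 1.58% with stricter peaks.

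Replicate numbers showed no clear pairing of the libraries in their calls, a check that cannot exclude pairing by plate or batch. Deviations of same-numbered libraries from their group means correlated between −0.0173 and 0.0644, and 5 of 18 closest partners shared a number. With the replicate block, p was 0.722 for the held-out share and 0.0833 for the CpG gap with its F of 7.79 (exact permutation), and 1.0, 0.5 and 0.5 for the 3 pairs. With 8 assignments the pairs allow no p under 0.25. The peak lists hold no value where no peak was called, and regions of 5 to 10 reads limit what a missing call shows.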
